A study of Mus musculus with 16 samples.

Results

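The genes described here encode the receptors by which a cell holds on to its surroundings: integrin subunits, cadherins, and the desmocollins and desmogleins of desmosomes. They were taken as the probe sets with exactly 1 gene symbol whose symbol is Itga or Itgb with a number, or Itgae, Itgal, Itgam, Itgav or Itgax, Cdh with a number, or Dsc or Dsg with a digit and nothing after it. A gene with several probe sets is represented by the one with the highest mean. This gave 52 genes (55 probe sets) among 18820 genes (21218 probe sets) tested: 16 integrin alpha subunits, 8 integrin beta subunits, 5 classical type I cadherins, 13 type II cadherins, 5 other cadherins, 2 desmocollins and 3 desmogleins. Itga2b, Itgad, Itgb2l, Dsg1b and Dsg1c carry a further letter and are not counted among them.

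RNA was measured in growing oocytes from ovaries of 12-day-old mice of C57BL/6 background, on Affymetrix Mouse 1.1 ST arrays. There were 4 genotypes with 4 biological replicates each, and each replicate pooled 80 oocytes: the knockout of both Hdac1 and Hdac2 (the double knockout), the Hdac1 knockout, the Hdac2 knockout, and wild type. The knockouts combined conditional loss-of-function alleles with a Zp3-Cre transgene, whose Cre is made under the promoter of a zona pellucida gene that growing oocytes express. HDAC1 and HDAC2 are histone deacetylases, and the labels give their roles in oocyte growth as the question. Because every value comes from a pool, a lower level in each oocyte and fewer oocytes with the transcript cannot be told apart.

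Integrins are pairs of an alpha and a beta subunit that bind extracellular matrix outside the cell and, through talin and kindlin, the actin cytoskeleton inside. Cadherins bind cadherins on the neighbouring cell and are tied to actin by catenins, whereas desmocollins and desmogleins are tied to intermediate filaments through plakoglobin, plakophilins and desmoplakin. In the ovary the growing oocyte stays attached to its granulosa cells through cadherin contacts, and the mouse egg carries integrins and the tetraspanin CD9 at its surface.

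Values are the deposited ones on a logarithmic scale, taken as log2, and a difference of 1 is then a change of 2-fold. All values below are levels on this scale unless they are called a change. The Hdac1 probe set stood at 7.66 ± 0.10 (SD, n = 4) in the double knockout, 6.61 ± 0.19 in Hdac1-knockout arrays, 9.64 ± 0.11 in Hdac2-knockout arrays and 9.28 ± 0.05 in wild type. The Hdac2 probe set stood at 10.87 ± 0.06 in the double knockout, 11.13 ± 0.05 in Hdac1-knockout arrays, 10.99 ± 0.03 in Hdac2-knockout arrays and 11.09 ± 0.07 in wild type, so it showed little of the deletion. A two-sided exact permutation test gave p = 0.0286, the smallest that 4 arrays against 4 allow, for Hdac1 in each knockout against wild type and for Hdac2 in the double and the Hdac2 knockout. In the limma fit over all probe sets Hdac2 fell by 0.21 in the double knockout (adjusted p = 0.00274), and did not pass in Hdac2-knockout arrays (change -0.10, adjusted p = 0.33). Hdac1 fell by 1.62 in the double knockout and 2.66 in Hdac1-knockout arrays (adjusted p = 2.38e-10 and 3.97e-12). In Hdac2-knockout arrays Hdac1 was higher, by 0.36 (adjusted p = 0.0172). That call was lost without Hdac2-knockout array 1 or 2 (adjusted p up to 0.0533). Arrays of 1 genotype correlated at 0.995 to 0.998 across the tested probe sets. The 17 oocyte markers averaged 11.17 to 11.23 per array in the double knockout and 11.15 to 11.20 in wild type, and every one lay above 5.27, the median of the tested probe sets. In the limma fit, 1 of the 17 was higher and 3 lower in the double knockout at an adjusted p under 0.05. Over all tested probe sets 18.5% were higher and 19.8% lower. The changes of the 17 ran between -0.56 and 1.08.

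In the double knockout, 16 of the 52 adhesion receptor genes passed the test against wild type (limma, Benjamini-Hochberg adjusted p under 0.05 over all 21218 probe sets). Of these, 8 were higher and 8 lower. Among all tested probe sets 18.5% were higher and 19.8% lower, so the receptor genes passed no more often than probe sets at large. The higher genes were Itga3, Itga5, Itgb2, Itgb5, Itgb8, Cdh4, Cdh17 and Cdh22, and the lower ones Itga8, Itga9, Itgav, Itgb3, Cdh8, Cdh19, Cdh20 and Dsc2. The median change of the 52 was 0.00, against -0.01 over all tested probe sets, and the median size of the change was 0.10, against 0.15.

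The genes that passed were also sorted by signal strength. Of the 13 receptor genes at or above the median of 5.27, 2 were higher in the double knockout and 6 lower; over all 10609 probe sets in this class, 24.1% were higher and 33.4% lower. Of the 39 below it, 6 were higher and 2 lower, against 12.9% higher and 6.14% lower over all probe sets in that class. The lean in each class was thus also that of the probe sets at large. The class was set by the mean over all 16 arrays, which include those of the double knockout. When each array was centred on its own median, the split over the 52 genes became 6 higher and 15 lower, beside 13.6% higher and 29.6% lower over all tested probe sets. With quantile normalization it became 7 higher and 10 lower, beside 17.5% and 21.9% over all. Centring moved the median change of all probe sets to -0.10.

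**Figure D1:**
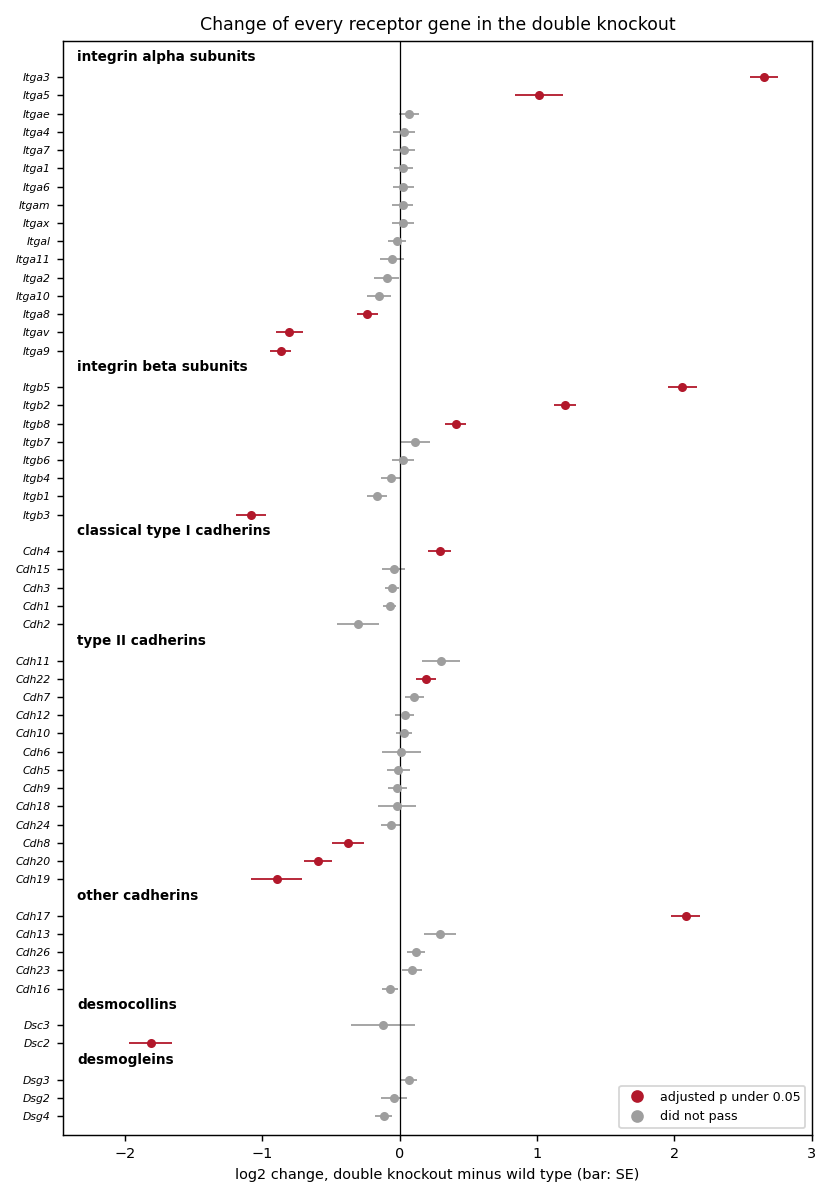
Change of each of the 52 receptor genes in the double knockout relative to wild type, on the log2 scale (horizontal axis), arranged by role. Points are fitted differences of 4 against 4 arrays, bars are standard errors, and red points passed at an adjusted p under 0.05; the points run between -1.81 for Dsc2 and 2.65 for Itga3, and most lie near 0.

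Among the integrin alpha subunits, 2 of 16 were higher and 3 lower, beside 18.5% higher and 19.8% lower over all tested probe sets. Itga3 (probe set 10390117, chromosome 11), the alpha subunit of a laminin receptor formed with Itgb1, stood at 6.87, 6.67, 6.75 and 6.46 in the double knockout, against 3.97, 4.06, 4.11 and 4.002 in wild type. The groups lay far apart, with no array of either between 4.11 and 6.46. The change was 2.65 ± 0.10 (SE; 6.29-fold, adjusted p = 9.02e-12), the largest of the 52 genes. Itga5 (probe set 10433114, chromosome 15), the alpha subunit of the fibronectin receptor, stood at 5.94, 5.19, 5.55 and 5.09 in the double knockout, against 4.48, 4.42, 4.39 and 4.41 in wild type. Its double-knockout arrays were spread more widely than the wild-type ones but lay above all of them, and the change was 1.02 ± 0.18 (SE; adjusted p = 0.000185).

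The 3 lower alpha subunits were Itga9, Itgav and Itga8. Itga9 (probe set 10590031, chromosome 9), which pairs with Itgb1 and binds tenascin, stood at 6.03, 5.71, 5.87 and 5.86 in the double knockout, against 6.62, 6.75, 6.85 and 6.70 in wild type. Every double-knockout array was below every wild-type array, and the level fell by 0.86 ± 0.08 (SE; adjusted p = 1.66e-07). Itgav (probe set 10473281, chromosome 2), the shared alpha partner of Itgb1, Itgb3, Itgb5, Itgb6 and Itgb8, stood at 6.04, 5.77, 5.88 and 5.48 in the double knockout, against 6.51, 6.51, 6.68 and 6.69 in wild type. These groups did not overlap either, and Itgav fell by 0.80 ± 0.10 (SE; adjusted p = 6.88e-06). Itga8, the alpha subunit of a nephronectin receptor, averaged 3.84 ± 0.09 in the double knockout and 4.07 ± 0.13 in wild type (SD, n = 4 each; adjusted p = 0.0233). That call was lost without wild-type array 1 or 4 or double-knockout array 2, with an adjusted p of up to 0.0846 and a change between -0.29 and -0.18.

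Among the beta subunits, 3 of 8 were higher and 1 lower, beside the same 18.5% and 19.8% over all tested probe sets. Itgb5 (probe set 10435305, chromosome 16), which pairs with Itgav to bind vitronectin, stood at 8.51, 8.27, 8.19 and 8.25 in the double knockout, against 6.06, 6.39, 6.19 and 6.35 in wild type. The lowest double-knockout array was well above the highest wild-type array, and the change was 2.06 ± 0.10 (SE; 4.17-fold, adjusted p = 1.86e-10). Itgb3 (probe set 10381809, chromosome 11), another beta partner of Itgav, went the other way and stood at 5.81, 5.56, 5.80 and 5.32 in the double knockout, against 6.73, 6.57, 6.70 and 6.82 in wild type. All 4 double-knockout arrays were below all 4 wild-type arrays, and Itgb3 fell by 1.08 ± 0.11 (SE; adjusted p = 7.04e-07).

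Itgb8 (probe set 10403229, chromosome 12), also a partner of Itgav and an activator of latent TGF-beta, stood at 4.10, 4.07, 4.27 and 4.11 in the double knockout, against 3.92, 3.74, 3.59 and 3.67 in wild type. The groups were close but did not overlap, and the change was 0.41 ± 0.07 (SE; adjusted p = 0.00033) at values below the median of the tested probe sets. Itgb6, an epithelial partner of Itgav, averaged 3.53 ± 0.12 in the double knockout and 3.51 ± 0.13 in wild type. Of the 5 listed beta partners of Itgav, 2 were thus higher in the double knockout, Itgb3 was lower, and Itgb1 and Itgb6 did not pass.

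Itgb2 (probe set 10364262, chromosome 10), the beta subunit of leukocyte integrins, stood at 5.40, 5.43, 5.20 and 5.21 in the double knockout, against 4.06, 4.03, 4.15 and 4.19 in wild type. No arrays overlapped, and the change was 1.20 ± 0.08 (SE; adjusted p = 7.02e-09). Its alpha partners Itgal, Itgam and Itgax did not pass: they averaged 4.01, 3.60 and 3.54 in the double knockout and 4.03, 3.58 and 3.52 in wild type. The 11 measured markers of blood, immune and endothelial cells, of 14 listed, averaged 4.41 to 4.51 per array in the double knockout and 4.59 to 4.65 in wild type, ranges that do not overlap. Their median change was -0.01, however, and 8 of the 11 did not pass. Of the 11, 1 was higher and 2 lower, beside 18.5% higher and 19.8% lower over all tested probe sets. By the mean over all 16 arrays, 8 of the 11 lay below the median of the tested probe sets. The leukocyte marker Ptprc did not pass (change 0.07), the macrophage marker Cd68 was higher by 0.38, and the endothelial markers Pecam1 and Tek fell by 1.37 and 0.81. Cdh5, the cadherin of endothelial junctions, averaged 3.55 ± 0.15 in the double knockout and 3.56 ± 0.10 in wild type. What part these markers have in the Itgb2 change was not tested.

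**Figure D2:**
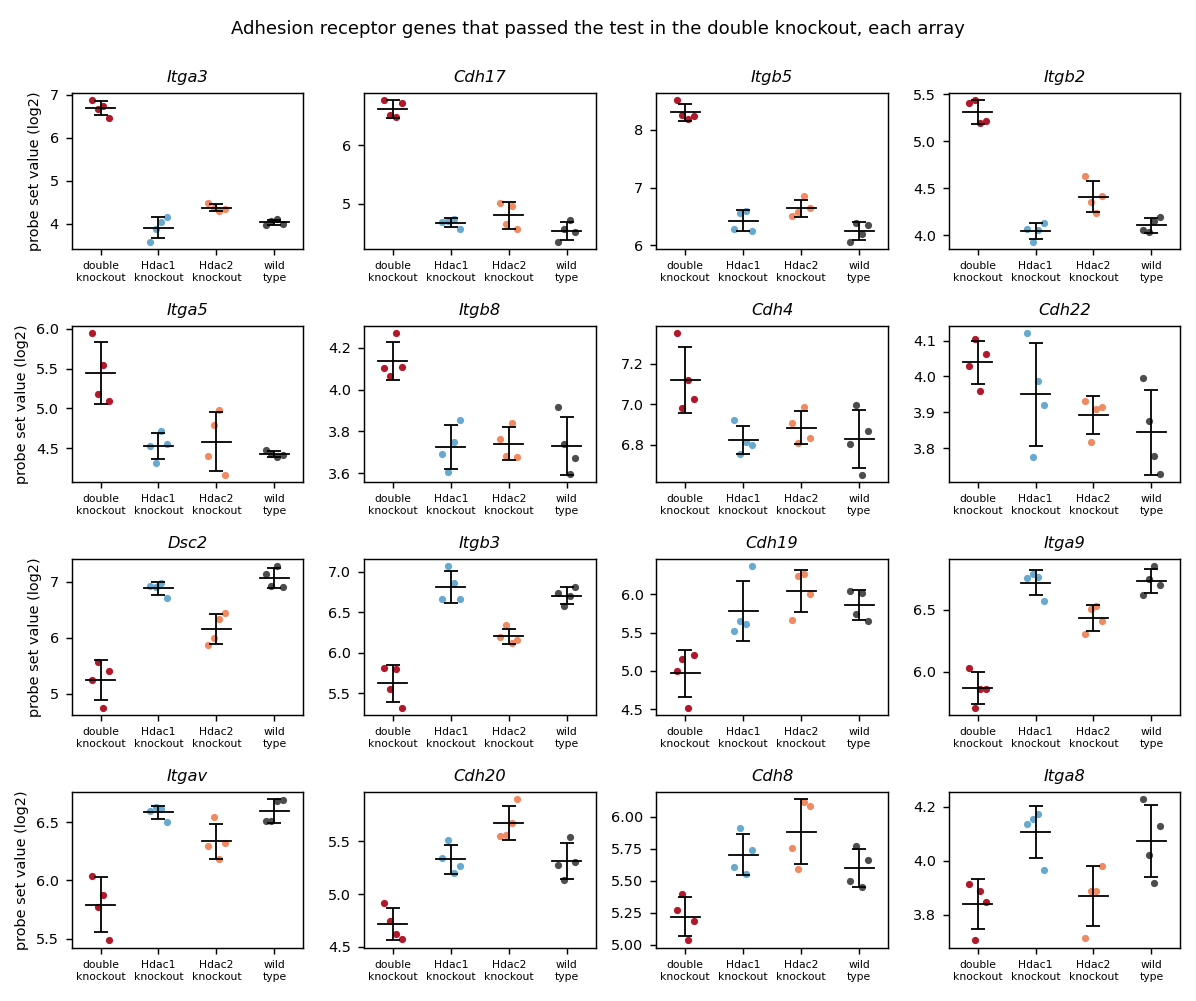
Level of the 16 receptor genes that passed in the double knockout, in every array of the 4 genotypes (vertical axis, log2 scale, which differs between panels). Points are arrays, horizontal lines means and error bars SDs over 4 arrays; in Itga3, Cdh17 and Itgb5 the 4 double-knockout arrays stand above all 12 others, and in Dsc2, Itgb3 and Itga9 the Hdac2 knockout lies between the double knockout and wild type.

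Upstream sequence is shown for the integrin and cadherin genes with the largest changes whose RefSeq promoter window was available, 3 higher and 3 lower, since these moved in opposite directions in the same oocytes. Each line gives the 250 bases before the annotated transcript start, 5′ to 3′ on the coding strand, in assembly GRCm38.p6. Capitals mark the GC box, searched as GGGCGG and its reverse complement CCGCCC. The windows are chr11:95076715-95076964 (minus strand) for Itga3, chr16:33829415-33829664 (plus strand) for Itgb5, chr15:103366792-103367041 (minus strand) for Itga5, chr9:118711442-118711691 (plus strand) for Itga9, chr2:83724147-83724396 (plus strand) for Itgav and chr1:104768270-104768519 (plus strand) for Cdh20.
Itga3: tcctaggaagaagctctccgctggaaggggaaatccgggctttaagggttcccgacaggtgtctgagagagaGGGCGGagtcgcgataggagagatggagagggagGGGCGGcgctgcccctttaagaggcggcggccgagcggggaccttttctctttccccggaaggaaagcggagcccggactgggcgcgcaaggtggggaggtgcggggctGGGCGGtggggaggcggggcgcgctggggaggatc
Itgb5: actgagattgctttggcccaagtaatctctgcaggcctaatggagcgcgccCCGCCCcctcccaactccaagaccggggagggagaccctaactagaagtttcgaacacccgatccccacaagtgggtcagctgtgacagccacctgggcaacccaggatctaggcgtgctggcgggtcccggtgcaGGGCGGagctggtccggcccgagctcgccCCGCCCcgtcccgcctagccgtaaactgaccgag
Itga5: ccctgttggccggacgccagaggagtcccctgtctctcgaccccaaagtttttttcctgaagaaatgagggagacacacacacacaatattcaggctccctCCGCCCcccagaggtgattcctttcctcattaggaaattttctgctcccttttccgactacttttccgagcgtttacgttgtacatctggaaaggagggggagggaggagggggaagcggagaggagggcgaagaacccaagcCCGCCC
Itga9: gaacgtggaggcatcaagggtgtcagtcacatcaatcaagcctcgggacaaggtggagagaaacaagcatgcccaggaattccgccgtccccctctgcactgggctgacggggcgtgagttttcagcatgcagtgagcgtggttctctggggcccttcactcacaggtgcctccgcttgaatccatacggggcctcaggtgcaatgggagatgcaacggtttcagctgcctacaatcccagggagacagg
Itgav: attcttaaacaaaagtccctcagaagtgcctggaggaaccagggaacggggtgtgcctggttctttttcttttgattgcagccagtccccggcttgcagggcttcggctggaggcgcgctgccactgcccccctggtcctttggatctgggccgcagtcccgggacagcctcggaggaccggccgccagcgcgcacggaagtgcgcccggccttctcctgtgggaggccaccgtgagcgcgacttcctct
Cdh20: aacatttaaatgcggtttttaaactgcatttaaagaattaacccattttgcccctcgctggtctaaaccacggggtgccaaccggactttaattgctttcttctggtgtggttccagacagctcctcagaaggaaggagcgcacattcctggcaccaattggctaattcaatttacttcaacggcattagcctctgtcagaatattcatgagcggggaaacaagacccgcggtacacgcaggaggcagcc

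The windows of Itga3, Itgb5 and Itga5 hold 3, 3 and 2 GC boxes, and those of Itga9, Itgav and Cdh20 hold none. TATAAA was searched on both strands and is in none of the 6. Over all 32851 RefSeq windows of the same length, 32.7% hold a GC box and 12.4% TATAAA. CpG dinucleotides number 22, 18 and 11 in the windows of Itga3, Itgb5 and Itga5 and 10, 18 and 10 in those of Itga9, Itgav and Cdh20, against a median of 6 over all windows. Of the 52 receptor genes 30 had a window: a GC box was found for 4 of the 5 higher genes, 1 of the 5 lower genes and 6 of the 20 that did not pass. Itga3 has 2 annotated starts: the window shown is that of the upstream one, and the window of the other holds 1 GC box and 5 CpG dinucleotides, below the median of 6. For a gene with several windows, a box in any of them was counted. A match to these letters is a description of the sequence and not a measured binding site.

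Itga6, Itgb1, Cdh1 and Cdh3, all measured well above the median of the tested probe sets, did not pass against wild type in any knockout. Itga6, the alpha subunit of laminin receptors on the mouse egg, averaged 10.79 ± 0.04 in the double knockout, 10.78 ± 0.15 in Hdac1-knockout arrays, 10.83 ± 0.09 in Hdac2-knockout arrays and 10.77 ± 0.11 in wild type (SD, n = 4 each). The 95% interval of its double-knockout change ran between -0.14 and 0.19, less than a 1.4-fold change either way. Itgb1, the partner of most alpha subunits, stood at 9.50, 9.40, 9.45 and 9.46 in the double knockout, against 9.53, 9.52, 9.79 and 9.63 in wild type. The double-knockout arrays were just below the wild-type ones, but the change of -0.16 did not pass (adjusted p = 0.0954, 95% interval -0.32 to -0.01). A second Itgb1 probe set, at 4.71 ± 0.11 in the double knockout and 4.72 ± 0.01 in wild type, did not pass in this comparison either.

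Cdh1, E-cadherin of epithelia and of the oocyte surface, averaged 9.96 ± 0.03 in the double knockout, 10.03 ± 0.03 in Hdac1-knockout arrays, 9.93 ± 0.05 in Hdac2-knockout arrays and 10.04 ± 0.07 in wild type. Its double-knockout change of -0.07 had a 95% interval of -0.17 to 0.03. Cdh3, P-cadherin, averaged 9.29 ± 0.09 in the double knockout, 9.42 ± 0.02 in Hdac1-knockout arrays, 9.49 ± 0.04 in Hdac2-knockout arrays and 9.34 ± 0.04 in wild type. Against wild type its change in the double knockout was -0.06 (95% interval -0.16 to 0.05). With each array centred on its median, Cdh1, Cdh2, Cdh3, Cdh16, Dsg4, Itga10 and Itgb1 passed as lower in the double knockout, so these calls depend on the scaling.

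**Figure D3:**
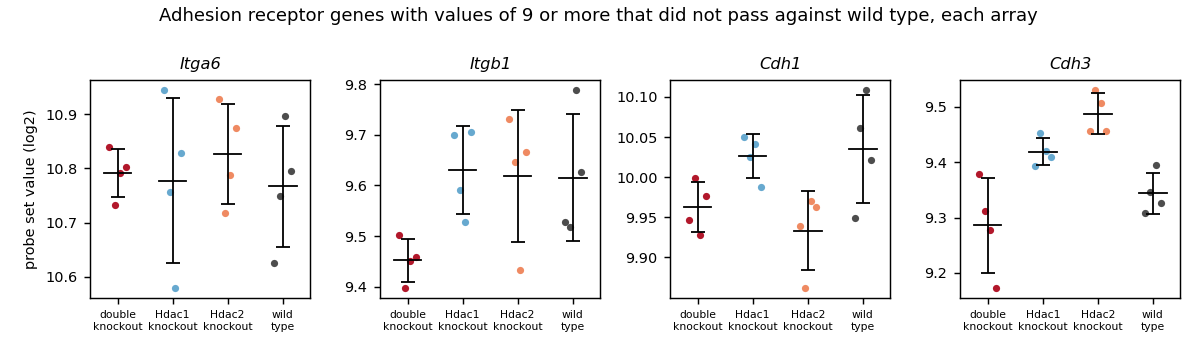
Level of Itga6, Itgb1, Cdh1 and Cdh3 in every array of the 4 genotypes (vertical axis, log2 scale, which differs between panels). Points are arrays, lines means and error bars SDs over 4 arrays; the 4 genotypes overlap for Itga6, and Itgb1 in the double knockout sits at 9.40 to 9.50, just under wild type at 9.52 to 9.79.

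Of the 5 classical type I cadherins, Cdh4 alone passed in the double knockout. Cdh4, R-cadherin, averaged 7.12 ± 0.16 in the double knockout and 6.83 ± 0.14 in wild type (adjusted p = 0.0108), with overlapping arrays, and it did not pass after centring. Cdh2, N-cadherin, averaged 4.33 ± 0.06 in the double knockout and 4.64 ± 0.34 in wild type (adjusted p = 0.133), with wild-type array 1 at 5.14 and the other three between 4.39 and 4.60. Cdh15, the muscle cadherin, averaged 3.73 ± 0.12 in the double knockout and 3.77 ± 0.11 in wild type.

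Among the type II cadherins, 1 of 13 was higher and 3 lower, beside 18.5% higher and 19.8% lower over all tested probe sets. Cdh19 (probe set 10357103) stood at 4.99, 5.15, 4.52 and 5.20 in the double knockout, against 6.05, 5.74, 6.01 and 5.65 in wild type. The double-knockout arrays were all lower, and Cdh19 fell by 0.90 ± 0.19 (SE; adjusted p = 0.00105). Cdh20 (probe set 10348999) stood at 4.92, 4.75, 4.62 and 4.57 in the double knockout, against 5.27, 5.13, 5.54 and 5.30 in wild type. The groups did not overlap, and Cdh20 fell by 0.60 ± 0.10 (SE; adjusted p = 0.000184). Both lie on chromosome 1 with Cdh7, which averaged 3.76 ± 0.10 in the double knockout and 3.66 ± 0.12 in wild type and did not pass.

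Cdh8, a cadherin known from the nervous system, averaged 5.22 ± 0.15 in the double knockout and 5.60 ± 0.15 in wild type (adjusted p = 0.0183). Without wild-type array 2 or double-knockout array 3 its call was lost, with an adjusted p of up to 0.064 and a change between -0.44 and -0.31. Cdh22 averaged 4.04 ± 0.06 in the double knockout and 3.84 ± 0.12 in wild type (adjusted p = 0.0449), with overlapping arrays. This was the weakest of the 16 calls: it was lost under both scalings, in the fit of these 2 groups alone, and when any of wild-type arrays 2, 3 and 4, double-knockout arrays 1, 2 and 4, Hdac1-knockout arrays 3 and 4 or Hdac2-knockout arrays 1, 3 and 4 was left out, with an adjusted p of up to 0.14. Cdh11, a mesenchymal cadherin, averaged 4.19 ± 0.40 in the double knockout and 3.89 ± 0.06 in wild type and did not pass (adjusted p = 0.0989).

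Cdh17 (probe set 10503341, chromosome 4), the liver-intestine cadherin, was the only one of the 5 other cadherins to pass. It stood at 6.77, 6.51, 6.48 and 6.72 in the double knockout, against 4.35, 4.56, 4.72 and 4.52 in wild type. The 4 double-knockout arrays were far above the wild-type arrays, and the change was 2.08 ± 0.11 (SE; 4.23-fold, adjusted p = 1.94e-10). Cdh13, a cadherin held in the membrane by a lipid anchor, averaged 4.62 ± 0.15 in the double knockout and 4.33 ± 0.28 in wild type (adjusted p = 0.0533). Cdh16 of the kidney, Cdh23 of the hair-cell tip link and Cdh26 changed by -0.07, 0.09 and 0.12 and did not pass.

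The desmosomal cadherin Dsc2 (probe set 10457686) was the receptor gene with the largest decrease. It stood at 5.25, 5.57, 4.76 and 5.41 in the double knockout, against 7.14, 6.93, 7.28 and 6.90 in wild type. No arrays overlapped, and Dsc2 fell by 1.81 ± 0.16 (SE; to 0.284 of the wild-type level, adjusted p = 1.25e-07). Dsc3, Dsg2, Dsg3 and Dsg4, which lie on chromosome 18 with it, did not pass. Dsc3, the other desmocollin, averaged 4.19 ± 0.25 in the double knockout and 4.31 ± 0.43 in wild type, with a 95% interval of its change of -0.61 to 0.37. The desmogleins, the other class of desmosomal cadherin, lay low in every genotype, with group means of 3.20 to 3.45, and 0 of 3 passed with limma in the double knockout (0 at an unadjusted p under 0.05).

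Over all receptor genes, 16 had double-knockout arrays that did not overlap the wild-type arrays, 6 above and 10 below. Among all tested probe sets 35.8% had groups that did not overlap, so this count too is near the background. The 36 genes that did not pass had changes between -0.31 and 0.30. For 32 of them the 95% interval stayed within a 1.4-fold change in either direction. The intervals of Cdh2, Cdh11, Cdh13 and Dsc3 reached beyond it, so a change of that size is inside the interval for these genes. Of the 36, 31 lay below the median of the tested probe sets. Such values lie closest to background, which limits what a narrow interval shows for them.

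In the Hdac2 knockout 5 receptor genes passed, against the same wild-type arrays: 2 were higher (2.86% of all tested probe sets) and 3 lower (2.74%). Dsc2 stood at 5.87, 5.99, 6.34 and 6.44 in the Hdac2 knockout, below all wild-type arrays, and fell by 0.90 ± 0.16 (SE; adjusted p = 0.0028). Itgb3 stood at 6.20, 6.34, 6.12 and 6.16 in the Hdac2 knockout, again below all wild-type arrays, and fell by 0.50 ± 0.11 (SE; adjusted p = 0.0127). Both calls held in each of the 16 fits that left out 1 array, with adjusted p of up to 0.0125 for Dsc2 and 0.0441 for Itgb3.

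The other three calls in the Hdac2 knockout were near the threshold. Itga9 stood at 6.30, 6.50, 6.53 and 6.41 in the Hdac2 knockout and fell by 0.30 ± 0.08 (SE; adjusted p = 0.0326). Itgb5 stood at 6.50, 6.58, 6.85 and 6.65 there and was higher by 0.40 ± 0.10 (SE; adjusted p = 0.0334). Itgb2 stood at 4.63, 4.36, 4.24 and 4.42 there and was higher by 0.30 ± 0.08 (SE; adjusted p = 0.0382). In all 3 genes no Hdac2-knockout array overlapped a wild-type array. Itga9 lost its call without wild-type array 2, 3 or 4 or Hdac2-knockout array 1 or 4 (adjusted p up to 0.104). Itgb5 lost it without wild-type array 1, 3 or 4 or Hdac2-knockout array 2, 3 or 4 (up to 0.103). Itgb2 lost it without any one of the wild-type arrays, without Hdac2-knockout array 1, 2 or 4 (up to 0.116), and in the fit of these 2 groups alone.

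Cdh3, Cdh20 and Itga3 had Hdac2-knockout arrays above all wild-type arrays without passing. With the genes that passed, 5 of the 52 receptor genes lay wholly above wild type and 3 wholly below. Over all 21218 tested probe sets the counts were 1345 above and 1522 below. Cdh20 stood at 5.55, 5.56, 5.68 and 5.90 in the Hdac2 knockout, a change of 0.36 (adjusted p = 0.052), whereas in the double knockout it was below wild type. Itga3 stood at 4.49, 4.37, 4.28 and 4.34 there, a change of 0.34 (adjusted p = 0.0754). Cdh3 stood at 9.46, 9.53, 9.51 and 9.46 there, a change of 0.14 (adjusted p = 0.114). Of the 47 genes that did not pass in the Hdac2 knockout, 41 had a 95% interval within a 1.4-fold change. Here 38 of the 47 lay below the median of the tested probe sets, with the same limit.

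In the Hdac1 knockout 0 of the 52 receptor genes passed with limma, and 1 had an unadjusted p under 0.05; 0.0707% of all tested probe sets passed in either direction. The changes ran between -0.18 for Dsc2 and 0.26 for Cdh2. The 95% interval stayed within a 1.4-fold change for 49 of the 52 genes, the exceptions being Cdh2, Dsc2 and Dsc3. Again 39 of the 52 lay below the median of the tested probe sets, closest to background. Dsc2 stood at 6.93, 6.90, 6.98 and 6.71 in the Hdac1 knockout and Itga3 at 3.58, 3.88, 4.03 and 4.15, both overlapping wild type.

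Set against each other, the single knockouts differed in 5 receptor genes. In the Hdac1 knockout 3 were higher than in the Hdac2 knockout (2.81% of all tested probe sets) and 2 lower (2.96%). Dsc2 averaged 6.88 ± 0.12 in Hdac1-knockout arrays and 6.16 ± 0.27 in Hdac2-knockout arrays, a difference of 0.72 (adjusted p = 0.0118). Itgb3 averaged 6.81 ± 0.19 in Hdac1-knockout arrays and 6.20 ± 0.10 in Hdac2-knockout arrays (adjusted p = 0.00392), and Itga9 6.72 ± 0.10 in the Hdac1 knockout and 6.44 ± 0.10 in the Hdac2 knockout (adjusted p = 0.0389). Itga3 averaged 3.91 ± 0.25 in Hdac1-knockout arrays and 4.37 ± 0.09 in Hdac2-knockout arrays (adjusted p = 0.0157), and Itgb2 4.05 ± 0.08 in the Hdac1 knockout and 4.41 ± 0.16 in the Hdac2 knockout (adjusted p = 0.0144). The Itga3 call was lost without Hdac2-knockout array 1 (adjusted p = 0.0545). The Itga9 call was lost without wild-type array 4, without Hdac1-knockout array 1, 2 or 3, without Hdac2-knockout array 1, 2 or 4 (up to 0.118), and in the fit of these 2 groups alone.

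The double knockout also differed from each single knockout. Against the Hdac1 knockout 8 receptor genes were higher (18.7% of all tested probe sets) and 11 lower (20.1%), and against the Hdac2 knockout 8 were higher (16.8%) and 10 lower (16.9%). With centring the splits were 7 higher and 17 lower against the Hdac1 knockout (13.6% and 32.6% of all tested probe sets) and 7 higher and 14 lower against the Hdac2 knockout (11.6% and 26.4%). Itga3 stood 2.78 above the Hdac1 knockout and 2.32 above the Hdac2 knockout, Itgb5 1.88 above the Hdac1 and 1.66 above the Hdac2 knockout, and Cdh17 1.95 above the Hdac1 and 1.82 above the Hdac2 knockout. Dsc2 stood 1.63 below the Hdac1 knockout and 0.91 below the Hdac2 knockout (adjusted p = 3.74e-07 and 0.000235).

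Some genes passed against a single knockout without passing against wild type. Cdh13 averaged 4.62 in the double knockout, 4.20 in Hdac1-knockout arrays and 4.16 in Hdac2-knockout arrays (adjusted p = 0.00617 and 0.00467). Cdh3 was lower than in the Hdac1 knockout by 0.13 (adjusted p = 0.0438). That call was lost in 13 of the 16 fits that left out 1 array (adjusted p up to 0.152). It was also lost with quantile normalization and in the fit of these 2 groups alone. Cdh3 was lower than in the Hdac2 knockout by 0.20 (adjusted p = 0.00448), and Cdh24, a type II cadherin, averaged 5.31 ± 0.07 in the double knockout and 5.56 ± 0.08 in the Hdac2 knockout (adjusted p = 0.0122). A second, dimmer Cdh24 probe set, at 4.42 ± 0.11 in the double knockout and 4.53 ± 0.27 in the Hdac2 knockout, did not pass in that comparison. Itga10, the alpha subunit of a collagen receptor, averaged 4.66 ± 0.12 in the double knockout and 4.96 ± 0.11 in Hdac1-knockout arrays (adjusted p = 0.0116). Cdh2 was lower than in both single knockouts (adjusted p = 0.00683 against Hdac1 and 0.0491 against Hdac2). The Cdh2 call against the Hdac2 knockout was lost without any one of the double-knockout arrays, Hdac1-knockout array 1 or 3, Hdac2-knockout array 2, 3 or 4, or wild-type array 4 (adjusted p up to 0.154).

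A test of the interaction asked whether the double-knockout change departs from what the changes of both single knockouts add up to in log2. For 7 receptor genes the double knockout lay above that sum (11.7% of all tested probe sets) and for 9 below it (11.6%). Itga3 changed by 2.65 in the double knockout, -0.12 in Hdac1-knockout arrays and 0.34 in Hdac2-knockout arrays, a departure of 2.44 ± 0.15 (SE; adjusted p = 6.72e-09). Cdh17 departed by 1.68 (adjusted p = 6.59e-07), Itgb5 by 1.48 (2.24e-06) and Itgb2 by 0.96 (1.83e-05), with Itga5, Itgb8 and Cdh13 the other three above the sum. In each of these 7 genes the double knockout averaged above both single knockouts.

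Below the sum lay Cdh19 (-1.004), Cdh20 (-0.97), Cdh8 (-0.77), Dsc2 (-0.73), Itgb3 (-0.69), Cdh2 (-0.67), Itga9 (-0.56), Itgav (-0.53) and Cdh3 (-0.28), with adjusted p between 0.000151 and 0.034. Cdh20 changed by -0.60 in the double knockout, 0.02 in Hdac1-knockout arrays and 0.36 in Hdac2-knockout arrays. Dsc2 changed by -1.81 in the double knockout, -0.18 in Hdac1-knockout arrays and -0.90 in Hdac2-knockout arrays. The departure of Dsc2 lost its call without wild-type array 4 or Hdac2-knockout array 4 (adjusted p up to 0.0524). That of Cdh2 was lost without double-knockout array 1, Hdac1-knockout array 1, 2 or 3, Hdac2-knockout array 2 or 4, or wild-type array 2, 3 or 4 (up to 0.0727). That of Itga5, which was 0.75 (adjusted p = 0.0379), was lost under both scalings and without double-knockout array 1 or 3, Hdac1-knockout array 1, 2 or 4, Hdac2-knockout array 1 or 4, or any one of the wild-type arrays (up to 0.0775).

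**Figure D4:**
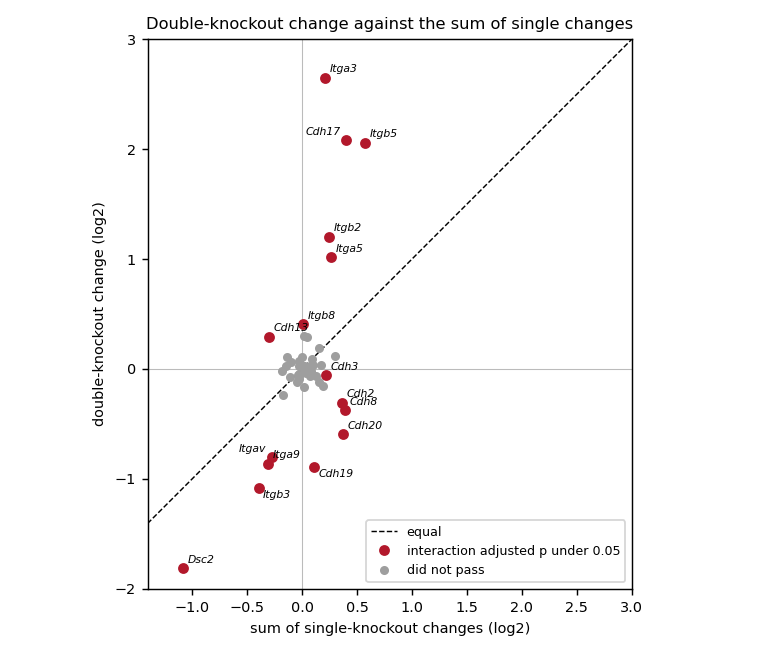
Double-knockout change of each of the 52 receptor genes (vertical axis, log2) against the sum of its changes in the Hdac1 and Hdac2 knockouts (horizontal axis, log2), all relative to the same 4 wild-type arrays. The dashed line marks equality, and red points passed the interaction test; Itga3, Cdh17 and Itgb5 lie far above the line, with Dsc2, Cdh19 and Cdh20 below it.

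The proteins that anchor cadherins inside the cell were taken as a list of 15 catenin and desmosomal plaque genes, of which 7 were higher and 2 lower in the double knockout, beside 18.5% higher and 19.8% lower over all tested probe sets. Dsp, desmoplakin, which ties desmosomes to intermediate filaments, stood at 8.51, 8.07, 8.23 and 8.09 in the double knockout, against 5.10, 4.89, 5.18 and 5.14 in wild type. The groups were widely separated, with a change of 3.15 ± 0.10 (SE; adjusted p = 3.96e-13), while the desmocollin Dsc2 fell in the same arrays. Pkp2, a plakophilin, averaged 8.39 ± 0.16 in the double knockout and 7.39 ± 0.11 in wild type (adjusted p = 8.95e-08), and Jup, plakoglobin, averaged 7.80 ± 0.11 in the double knockout and 7.13 ± 0.08 in wild type (adjusted p = 4.22e-06). Ctnnd1, p120 catenin, was also higher, by 0.30 (adjusted p = 0.0027). The other three higher calls depended on the scaling: Ctnnb1, beta-catenin, lost its call on centring, and the plakins Ppl and Evpl lost theirs on centring and with quantile normalization. The alpha catenins Ctnna3 and Ctnna1 fell by 0.39 and 0.21. The call of Ctnna1 (adjusted p = 0.0441) was lost without any one of the double-knockout arrays, Hdac1-knockout array 2 or 3, Hdac2-knockout array 3, or wild-type array 3 or 4 (up to 0.163), and with quantile normalization. The list's median change was 0.10, against -0.01 over all tested probe sets.

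Of 27 measured integrin adaptors and focal adhesion genes, 6 were higher and 4 lower, with a median change of 0.04, a share of calls near the 18.5% higher and 19.8% lower over all tested probe sets. Tln1 and Itgb1bp1, counted among the 6, lost their calls on centring, and Itgb1bp1 also without double-knockout array 3 or 4 or wild-type array 2 or 4 (adjusted p up to 0.0942). Zyx, zyxin of focal adhesions, averaged 7.39 ± 0.17 in the double knockout and 6.21 ± 0.16 in wild type (adjusted p = 6.89e-08), and Bcar1, Ilk and Pxn were higher by 0.34, 0.45 and 0.42. Tns2, a tensin, averaged 5.89 ± 0.05 in the double knockout and 6.95 ± 0.17 in wild type (adjusted p = 2.36e-08). Tln2, a talin, and Fermt2, a kindlin that activates integrins, fell by 0.50 and 0.40, and Dab2 fell by 0.70. In the Hdac2 knockout Zyx, Tln1 and Vcl were higher and Tns2 lower. There the call of Zyx was lost without wild-type array 3 (adjusted p = 0.0545), and that of Vcl without Hdac2-knockout array 1, 2 or 4 or wild-type array 1 or 2 (up to 0.0728). The call of Tln1 was lost without any array other than double-knockout arrays 2 and 3 (up to 0.138). Vcl did not pass in the double knockout.

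Of 21 measured laminin, nidogen, collagen IV and other ligand genes, 6 were higher and 4 lower, with a median change of 0.00, beside 18.5% higher and 19.8% lower over all tested probe sets. Of the 6, Npnt lost its call with quantile normalization, and Icam1 on centring and without double-knockout array 1 or 3 or wild-type array 3 (adjusted p up to 0.0743). Fn1, fibronectin, the ligand of the receptor that Itga5 forms, stood at 5.67, 6.30, 5.16 and 5.83 in the double knockout, against 4.29, 4.35, 4.44 and 4.33 in wild type. All double-knockout arrays were higher, with a change of 1.38 ± 0.15 (SE; adjusted p = 2.02e-06). Among the laminin chains, which Itga3 and Itga6 receptors bind, Lama5 and Lamc1 were higher by 0.70 and 0.80, and Lama4 and Lama2 fell by 0.68 and 0.44. Lama3 and Lama1 fell by 0.22 and 0.17 near the threshold (adjusted p = 0.036 and 0.0411); leaving out some of the single arrays ended both calls, namely double-knockout array 1, 3 or 4 or wild-type array 1, 2 or 4 for Lama3, and any double-knockout array, Hdac2-knockout array 2, or wild-type array 1 or 2 for Lama1. Thbs1, thrombospondin-1, was higher by 0.50. In the Hdac2 knockout Lama5, Lamc1 and Tnc were higher. Tnc, tenascin-C, averaged 5.20 ± 0.17 there and 4.36 ± 0.26 in wild type (adjusted p = 0.00171). Unlike these laminin chains, Tnc did not pass in the double knockout. The Lamc1 call in the Hdac2 knockout was lost without Hdac2-knockout array 1, 2 or 4 or wild-type array 1, 2 or 3 (adjusted p up to 0.0991).

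Of the 6 tetraspanins that associate with integrins, 3 were higher and 2 lower, beside 18.5% and 19.8% over all tested probe sets. Cd63 stood at 8.98, 8.83, 9.32 and 9.33 in the double knockout, against 5.63, 4.26, 5.10 and 6.00 in wild type. The wild-type arrays spread widely but stayed below every double-knockout array, and the change was 3.87 ± 0.29 (SE; adjusted p = 2.62e-08). Cd81 and Tspan4 were higher by 1.16 and 0.70. Cd9, which the mouse egg needs to fuse with sperm, stood at 9.25, 9.10, 8.98 and 9.25 in the double knockout, 9.26, 9.57, 9.40 and 9.59 in the Hdac2 knockout, and 9.996, 9.97, 9.92 and 9.89 in wild type. Both knockouts lay below all wild-type arrays, and Cd9 fell by 0.80 in the double knockout (adjusted p = 1.13e-06) and by 0.49 in the Hdac2 knockout (adjusted p = 0.00263). Cd151, a laminin-receptor partner, fell by 0.33 in the double knockout.

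**Figure D5:**
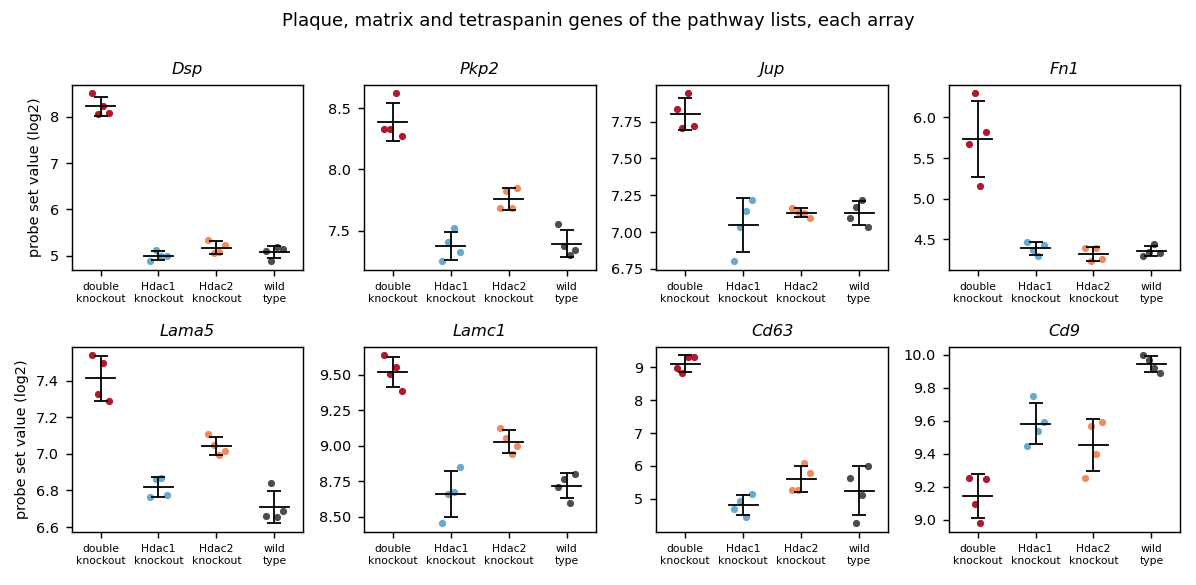
Level of plaque genes (Dsp, Pkp2, Jup), matrix genes (Fn1, Lama5, Lamc1) and tetraspanins (Cd63, Cd9) in every array of the 4 genotypes (vertical axis, log2 scale, which differs between panels). Points are arrays, lines means and error bars SDs over 4 arrays; Dsp and Cd63 in the double knockout stand above all 12 other arrays, and Cd9 is below wild type in each of the 3 knockouts, although the Hdac1-knockout change of -0.36 did not pass (adjusted p = 0.179).

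Markers of the cells that surround the oocyte were also read. The 11 measured granulosa markers averaged 4.77 to 4.92 per array in the double knockout and 4.75 to 4.91 in wild type. By the mean over all 16 arrays, 10 of the 11 lay below the median of the tested probe sets. The exception, Nr5a2, fell by 1.07 in the double knockout, and of the others Inha and Wt1 were higher by 0.59 and 0.56 and Kitl fell by 0.37. The 11 measured theca and stroma markers averaged 3.86 to 3.91 in the double knockout and 3.78 to 3.87 in wild type, all below that median, and of these Acta2 was higher by 0.31. Their part in the adhesion gene changes was not tested.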

How the data were processed

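Affymetrix Mouse 1.1 ST arrays measured RNA of 16 pools of oocytes. The authors deposited values for 35556 probe sets on each array, on a log scale taken as log2: the labels do not state the base, and base e would put the highest value at 394439, beyond the 65536 steps of a 16-bit scanner, against 7566 with base 2. Rescaling could exceed that range, so all folds rest on this reading. MAS5 made them per the submitters' processing notes (no version stated), and GeneSpring 7, SAM and EASE with a 1.4-fold limit also appear in the design text. Values were used as deposited, with no further normalization or filter; array medians were 4.46 to 4.59.

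Probe sets were named from the platform annotation: 21218 had 1 symbol and were tested, 1881 had several and 12457 none. By gene identifier all 52 receptor genes matched the RefSeq table of GRCm38.p6, with 0 symbols changed. All 16 arrays entered a single limma 3.58.1 fit (R 4.3.3, genotype means, 12 residual degrees of freedom), 7 contrasts were tested two-sided, and p-values were adjusted by Benjamini-Hochberg over all 21218. The fit was tested on simulated arrays with independent noise. Far fewer probe sets were changed there than passed in the double knockout, so that test does not cover changes as widespread as these. Replicates are biological per the labels. The limma p-values set each difference against the spread between pools of 1 genotype. That spread was estimated over all 4 genotypes and moderated across probe sets. The number of arrays limits the precision.

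The genes and lists were chosen with earlier results of these data known. Every receptor gene could be named. Values of each array were given for up to 6 higher and 6 lower genes of the double knockout and up to 5 of each for a single knockout. From each pathway list the genes with the smallest adjusted p were named, up to 4 in each direction, and those called in a single knockout; values of other genes were chosen after they were seen. Alternatives were the replicate block, centring, quantile normalization, leaving out dim probe sets, a fit of the compared groups alone, a 1.4-fold minimum, the lowest-mean probe set, and leaving out each array.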

Additional observations from a re-analysis of the deposited data

Results flagged for a closer look

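In 10 of 208 sets of 4 arrays (52 genes in 4 genotypes), the highest or lowest array stood far from the other three by Dixon's 95% criterion; chance flags about 1 set in 20. In the double knockout these were Cdh15 array 1 (3.91, others 3.66 to 3.68) and Itga1 array 3 (3.52, others 3.67 to 3.70). In the Hdac1 knockout they were Cdh19 array 4 (6.37, others 5.52 to 5.66), Itga9 array 4 (6.57, others 6.75 to 6.79) and Cdh24 array 2 (5.12, others 5.35 to 5.39). In the Hdac2 knockout they were Itga4 array 4 (3.77, others 3.43 to 3.46) and Itgb6 array 1 (3.40, others 3.53 to 3.56). In wild type they were Cdh11 array 2 (3.80, others 3.91 to 3.93), Itgam array 1 (3.82, others 3.47 to 3.52) and Itgb6 array 3 (3.70, others 3.42 to 3.46).

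For 16 receptor genes the interaction passed, 7 above and 9 below the sum of the single-knockout changes. Among all tested probe sets 11.7% lay above the sum and 11.6% below it. Such a call means that the log2 change from losing 1 deacetylase gene differed with the state of the other. Relative to what the single-knockout changes add up to, the double knockout departed in log2 by 2.44 for Itga3, 1.68 for Cdh17, 1.48 for Itgb5, 0.96 for Itgb2, 0.75 for Itga5, 0.60 for Cdh13 and 0.40 for Itgb8. The departures were -1.004 for Cdh19, -0.97 for Cdh20, -0.77 for Cdh8, -0.73 for Dsc2, -0.69 for Itgb3, -0.67 for Cdh2, -0.56 for Itga9, -0.53 for Itgav and -0.28 for Cdh3. The calls of Itga5, Cdh2 and Dsc2 did not hold in every fit that left out 1 array.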

How the results depend on the processing

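No named receptor gene that passed changed direction under any alternative. The count of 16 in the double knockout against wild type became 8 when dim probe sets were left out, a setting that leaves 13 of the 52 genes to test. The counts of 19 against the Hdac1 knockout and 18 against the Hdac2 knockout became 10 each, and the 16 interaction calls became 8. Over the 10609 probe sets of that setting, 26% were higher and 35.8% lower in the double knockout against wild type. The shares were 26.3% and 36.2% against the Hdac1 knockout and 22.9% and 32% against the Hdac2 knockout. In the interaction they were 18.1% above and 23.9% below the sum. A minimum of 1.4-fold left 12 of the 19, 2 of the 5 calls of the Hdac2 knockout against wild type, and 2 of the 5 between the single knockouts. Over all 21218 tested probe sets, that minimum left 1793 higher and 1725 lower in the double knockout against the Hdac1 knockout. It left 242 higher and 212 lower in the Hdac2 knockout against wild type. Between the single knockouts, 196 were higher and 273 lower in the Hdac1 knockout. Leaving out 1 array gave 2 to 6 calls for the Hdac2 knockout against wild type and 3 to 7 between the single knockouts. The shares over all tested probe sets in those fits are not reported here. The replicate block left 2 of the 5 calls of the Hdac2 knockout against wild type, dropping Itga9, Itgb2 and Itgb5, and 16 in the double knockout. With the block, 2.31% of all tested probe sets were higher and 2.16% lower in the Hdac2 knockout against wild type. In the double knockout against wild type the shares were 17.9% and 19.3%. The block also ended the calls of Itga9 between the single knockouts, of Cdh2 against the Hdac2 knockout and in the interaction, of Cdh3 against the Hdac1 knockout, of Ctnna1 and Lama1 in the double knockout, and of Tln1 and Lamc1 in the Hdac2 knockout. The labels' replicate numbers did not pair the arrays: over 24 same-numbered pairs the deviations from group means correlated at -0.15 to 0.09, and 2 of the 16 arrays correlated best with their own number. Genes with values below the median of the tested probe sets, 39 of the 52, lie closest to background, which limits what can be seen of them.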
